A study of Homo sapiens with 7 samples.

Results

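TMPRSS2, FKBP5, SLC45A3, PMEPA1, NDRG1, TRPM8, STEAP2, ZBTB16, ABCC4 and FOLH1, genes known to respond to androgen in prostate cells and 10 of 20163 protein-coding genes here, were followed through H3K27ac HiChIP of 3 cancer cell lines. They were chosen by name, and a loop was given to a gene when 1 of its anchors lay over a 500 bp window centred on any of the gene's annotated start sites. H3K27ac HiChIP joins chromatin that is in contact, cuts it, pulls down the pieces that carry acetylated lysine 27 of histone H3 (a mark of active promoters and enhancers), and counts the read pairs that link 1 piece (an anchor) with another. LNCaP is a prostate carcinoma line, T-47D a breast ductal carcinoma line and Ishikawa an endometrial adenocarcinoma line. The LNCaP list of loops pooled 2 samples and the T-47D list came from 1 sample. For both lines the labels name no treatment and no androgen or other hormone. The study's methods describe LNCaP culture in medium with serum, and a move of cells to hormone-depleted medium ahead of estrogen treatment. They do not say which medium was used for HiChIP of these lines. The Ishikawa list pooled 4 samples, 2 given vehicle (DMSO) and 2 given 10 nM beta-estradiol (E2), each for 1 h. Ishikawa chromatin was cut with DpnII and that of the other lines with MboI, and fragmentation and sequencer differed in the same way, so line and these steps cannot be told apart. Each line had 1 pooled list and therefore no replicate values, so no test was run. The 95% intervals below are exact and cover counting error only.

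Androgen acts through a nuclear hormone receptor that, once bound by hormone, moves to the nucleus and binds enhancers, often beside the forkhead factor FOXA1 and, in prostate cells, HOXB13. The receptor's recognition sequence is an inverted repeat of 6 letters with a gap of 3 bases. Many of its best known targets, among them TMPRSS2 and FKBP5, are used as readouts of receptor activity in prostate cancer cells.

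Across the members, LNCaP held 385 loops with 19676 read pairs, which was 1.09% of all read pairs in its list. T-47D held 29 such loops with 291 read pairs (0.0828% of its list), and Ishikawa held 45 with 344 read pairs (0.0331%). Of the members 9 had a loop in LNCaP, 4 in T-47D (TMPRSS2, FKBP5, PMEPA1 and STEAP2) and 7 in Ishikawa, beside 58.1%, 49.2% and 57.3% of all protein-coding genes. Levels are read pairs per 1000000 read pairs of the list, written RPM. On this scale 7 of 10 members were higher in LNCaP than in T-47D by 2-fold or more and 1, PMEPA1, was lower. Among all protein-coding genes, 14.3% were higher and 23.1% lower in this comparison. Against Ishikawa 9 of 10 members were higher and none was lower, beside 35.5% and 22.9% of all genes. Of the members 7 were higher in LNCaP than in both other lists, beside 11.1% of all genes. The median fold was 52.2 over T-47D and 27.3 over Ishikawa for the 9 members with a fold, beside 0.730 (n = 11752 genes) and 1.88 (n = 14620 genes) for all genes, with a gene that had no loop in 1 list set there at 3 read pairs, the lowest count that any list held. In pooled cells, a contact made in fewer cells and a weaker contact in each cell cannot be told apart.

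**Figure D1:**
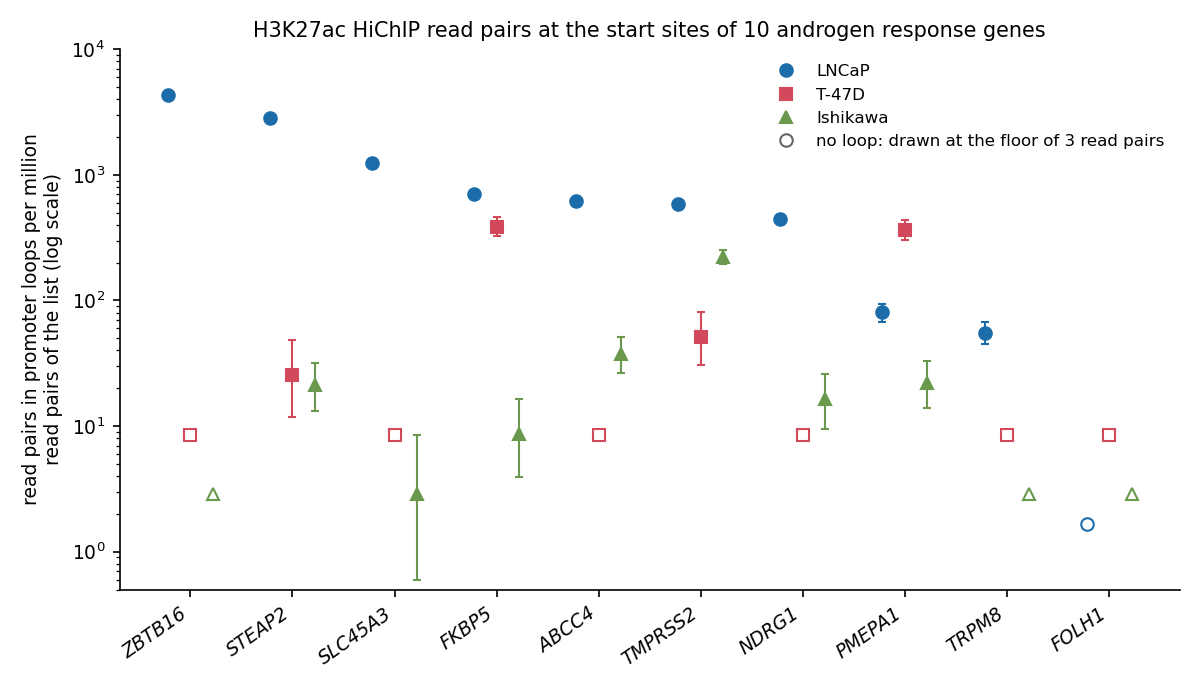
Read pairs in the promoter loops of each member in RPM, read pairs per 1000000 of the list (log axis), in LNCaP (circles), T-47D (squares) and Ishikawa (triangles), with exact Poisson 95% intervals; open symbols mark a member without a loop, drawn at 3 read pairs, which is 1.66, 8.54 and 2.88 RPM in the LNCaP, T-47D and Ishikawa lists. LNCaP was the highest list for 8 members, T-47D for PMEPA1, and FOLH1 had no loop in any list.

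TMPRSS2, a serine protease of the surface of epithelial cells, was joined by 1056 read pairs in LNCaP (585 RPM, 95% interval 550 to 621), 18 in T-47D (51.2 RPM, 30.4 to 81.0) and 231 in Ishikawa (222 RPM, 194 to 253). The order of the levels was LNCaP, Ishikawa, T-47D, and no interval overlapped another. LNCaP was 11.4-fold over T-47D (7.19 to 19.3) and 2.63-fold over Ishikawa (2.28 to 3.05). The last value was close to that of all genes, 55.3% of which had a lower fold. It was under 2-fold with only loops of 10 or more read pairs (1.84), with spans of 20 kb to 1 Mb (1.38) and when scaled by promoter loops (1.57). The lists did not reach the gene at the same start sites. The LNCaP anchor, chr21:42888286-42905250 in GRCh37, covered the upstream start site at 42903043 and no other of the gene's 6 groups of start sites. Neither T-47D nor Ishikawa had an anchor over that start site. Their anchors, chr21:42877872-42880989 and chr21:42878661-42893292, lay over the start site of the MANE Select transcript (the reference transcript agreed between annotation groups), which lies about 23.0 kb into the gene. The Ishikawa anchor overlapped the LNCaP anchor from 42888286 to 42893292, a stretch with no start site of the gene, and the T-47D anchor did not. Ishikawa had another anchor near the gene's 3' end, over a start site 62.3 kb into the gene, with 146 read pairs. That start site belongs to a transcript that is not coding, and the anchor, 28.0 kb wide, also overlapped the gene MX1. Counted at the MANE Select start site alone, TMPRSS2 had 0 read pairs in LNCaP, 18 in T-47D and 118 in Ishikawa, and the direction turned. The 250 bases before the upstream start site, on the minus strand of GRCh37, show the promoter that LNCaP alone held, with the CpG dinucleotide in capitals.
TMPRSS2, before the upstream start site (LNCaP), chr21:42903044-42903293: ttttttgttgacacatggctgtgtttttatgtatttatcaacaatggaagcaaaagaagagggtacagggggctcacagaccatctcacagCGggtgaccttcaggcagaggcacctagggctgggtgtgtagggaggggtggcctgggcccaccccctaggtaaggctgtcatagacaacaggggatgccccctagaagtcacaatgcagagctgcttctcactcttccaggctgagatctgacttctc
This stretch held 1 CpG and 52.8% G and C. The median over all protein-coding genes, at 1 start site each, was 18 CpG (quartiles 7 and 26).

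Although the start sites differed, all 3 lists joined TMPRSS2 to the same stretch upstream of the gene. The strongest LNCaP loop, of 358 read pairs, ended in an anchor centred 6.35 kb upstream of the gene (chr21:42906687-42912094). Ishikawa had 39 read pairs to an anchor overlapping it by 4945 bases, and T-47D had 4, to an anchor of which all 2373 bases lay within it. LNCaP and T-47D also shared a contact about 198 kb upstream, with 67 and 3 read pairs, and LNCaP and Ishikawa 1 about 118 kb upstream, with 21 and 19. An anchor 30.2 kb into the gene in T-47D overlapped 1 of Ishikawa, 28.0 kb into the gene, and no LNCaP loop of TMPRSS2 ended there. Of the 25 distal anchors in LNCaP, meaning anchors over no start site of a protein-coding gene, 22 lay upstream of the gene and held 863 of 883 read pairs. LNCaP also joined TMPRSS2 to start sites of 12 other genes. RIPK4, a kinase gene, led them with 89 read pairs, and the rest were ABCG1, C2CD2, FAM3B, MX1, PKNOX1, PRDM15, RSPH1, SLC37A1, TFF1, UMODL1 and ZBTB21. FAM3B and MX1 were also joined to it in Ishikawa, and none in T-47D.

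**Figure D2:**
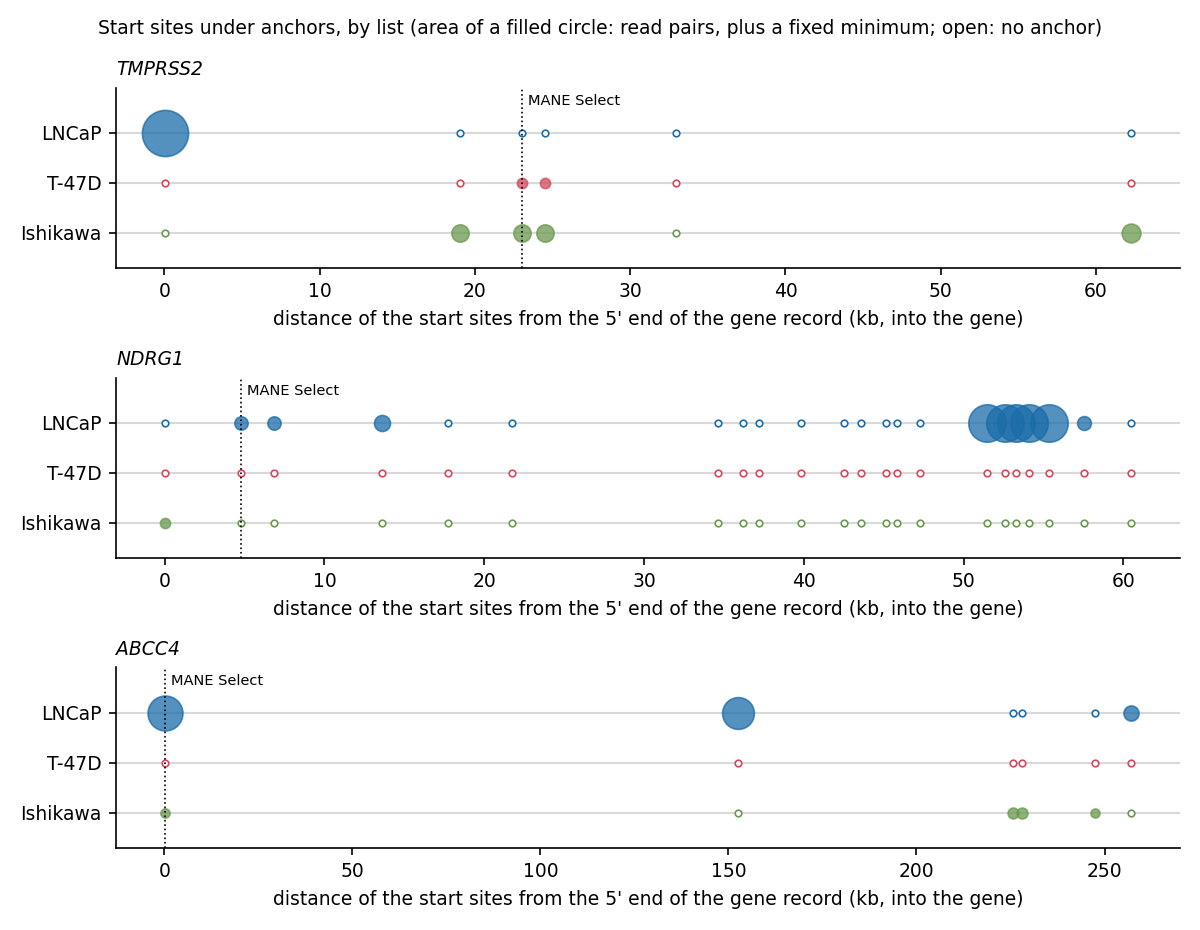
Groups of start sites of TMPRSS2, NDRG1 and ABCC4 (x axis, kb from the 5' end of the gene record into the gene) in each list; a filled circle marks a group under an anchor, its area growing with the anchors' read pairs, and an open circle a group under none. LNCaP shared no group of TMPRSS2 or NDRG1 with another list, and shared the first group of ABCC4 with Ishikawa; neighbouring circles under 1 anchor show the same read pairs.

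FKBP5, a co-chaperone that binds HSP90 in steroid receptor complexes, had its level in T-47D within 2-fold of that in LNCaP. Its loops held 1278 read pairs in LNCaP (708 RPM, 670 to 748), 136 in T-47D (387 RPM, 325 to 458) and 9 in Ishikawa (8.65 RPM, 3.96 to 16.4). LNCaP was 1.83-fold over T-47D (1.53 to 2.20), under the 2-fold limit, and 81.8-fold over Ishikawa (43.0 to 179). The fold over Ishikawa was 16.6 at the MANE Select start site alone and 24.5 when the promoter anchors of all lists were pooled as the promoter region in each list, both alternatives chosen after seeing the data. The fold over T-47D was 3.14 at the 5' end of the gene record alone, 2.74 for spans of 20 kb to 1 Mb and 3.68 when scaled by the read pairs of other loops within 1 Mb, and 0.615 at the MANE Select start site alone, so the call and the direction depended on these choices. Both start regions of FKBP5, 39.7 kb apart, had an anchor in LNCaP and in T-47D. In LNCaP the upstream anchor, which also covers a start site of ARMC12, held 1162 read pairs and the other, at the MANE Select start site, 259. In T-47D the values were 72 and 82. The promoters were joined to each other by 143 read pairs in LNCaP and 18 in T-47D. LNCaP read pairs went mostly into the body of the gene, with the strongest loop, of 191 read pairs, ending 140 kb from the 5' end. The strongest T-47D loops ended 58.4 kb into the gene (23 read pairs) and 4.05 kb upstream of it (21 read pairs). LNCaP had no distal anchor of FKBP5 at the first, and the other lies under its wide upstream promoter anchor. Of 30 distal anchors in LNCaP and 6 in T-47D, 2 of each list overlapped, while over all genes 8.55% of distal anchors of LNCaP and 29.7% of those of T-47D overlapped an anchor joined to the same gene in the other list. One of these, chr6:35567020-35573275, lay in an intron 126 kb from the 5' end, with 136 read pairs in LNCaP and 6 in T-47D. FKBP5 was joined to 18 other genes in LNCaP: ANKS1A, BRPF3, CDKN1A, CLPSL1, DEF6, FANCE, KCTD20, MAPK14, PPARD, PXT1, RPL10A, SMIM29, SPDEF, SRPK1, SRSF3, TAF11, TEAD3 and ZNF76. CLPSL1, RPL10A and TEAD3 were joined to it in T-47D too.

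ZBTB16, which encodes the transcriptional repressor PLZF, had the highest level of the members. It was joined by 7849 read pairs in LNCaP (4348 RPM, 4252 to 4445) and by none in T-47D or Ishikawa. This was at least 509-fold over T-47D and at least 1508-fold over Ishikawa, with 99.98% of all genes at a lower LNCaP level. Most of the read pairs, 6550 of them, belonged to a single anchor 47.9 kb wide (chr11:114007734-114055671) inside the gene, over start sites of transcripts that are not coding. The MANE Select start site was under another anchor, of 12.2 kb, with 2171 read pairs. The strongest loop, of 1872 read pairs, joined the wide anchor to a 31.2 kb anchor beside it, and 872 joined it to the MANE Select promoter. Own-gene contacts held 5063 of the 6723 read pairs to distal anchors. Ishikawa had loops in the body of ZBTB16 away from its start sites, 8 with 41 read pairs. The strongest LNCaP loop, of 1872 read pairs, had both anchors over those of an Ishikawa loop. With the promoter anchors of all lists pooled, Ishikawa had 19 read pairs and LNCaP was 238-fold over it. LNCaP joined ZBTB16 to start sites of C11orf71, HTR3B, NNMT, RBM7, REXO2, TTC12, USP28 and ZW10, and of 1 gene with an Ensembl identifier only, ENSG00000255663.

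PMEPA1, a membrane protein that dampens TGF-beta signalling, was the exception in direction. Its loops held 145 read pairs in LNCaP (80.3 RPM, 67.8 to 94.5), 128 in T-47D (364 RPM, 304 to 433) and 23 in Ishikawa (22.1 RPM, 14.0 to 33.2). T-47D was 4.54-fold over LNCaP (3.55 to 5.79), and LNCaP was 3.63-fold over Ishikawa (2.33 to 5.91). The gene has start sites near its 5' end and others farther in, and the lists differed in which they held. All 3 lists had an anchor over the MANE Select start site, while a start site 19.7 kb into the gene lay under an anchor of T-47D (84 read pairs) and of Ishikawa (20), and under none of LNCaP. Counted at the MANE Select start site alone, the values were 145, 85 and 7. In T-47D the strongest loop, of 41 read pairs, joined these promoters. LNCaP's strongest, of 88 read pairs, ran to a 22.3 kb anchor centred 52.9 kb upstream, to which neither other list joined the gene. One upstream anchor was common to LNCaP and T-47D. It was centred 7.58 kb upstream in LNCaP (29 read pairs) and 7.74 kb in T-47D (51 read pairs), with an overlap of 4624 bases. All 8 distal anchors in LNCaP and all 5 in T-47D lay upstream of the gene. LNCaP joined PMEPA1 to no other gene, and T-47D joined it to RAB22A and VAPB with 3 read pairs each.

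**Figure D3:**
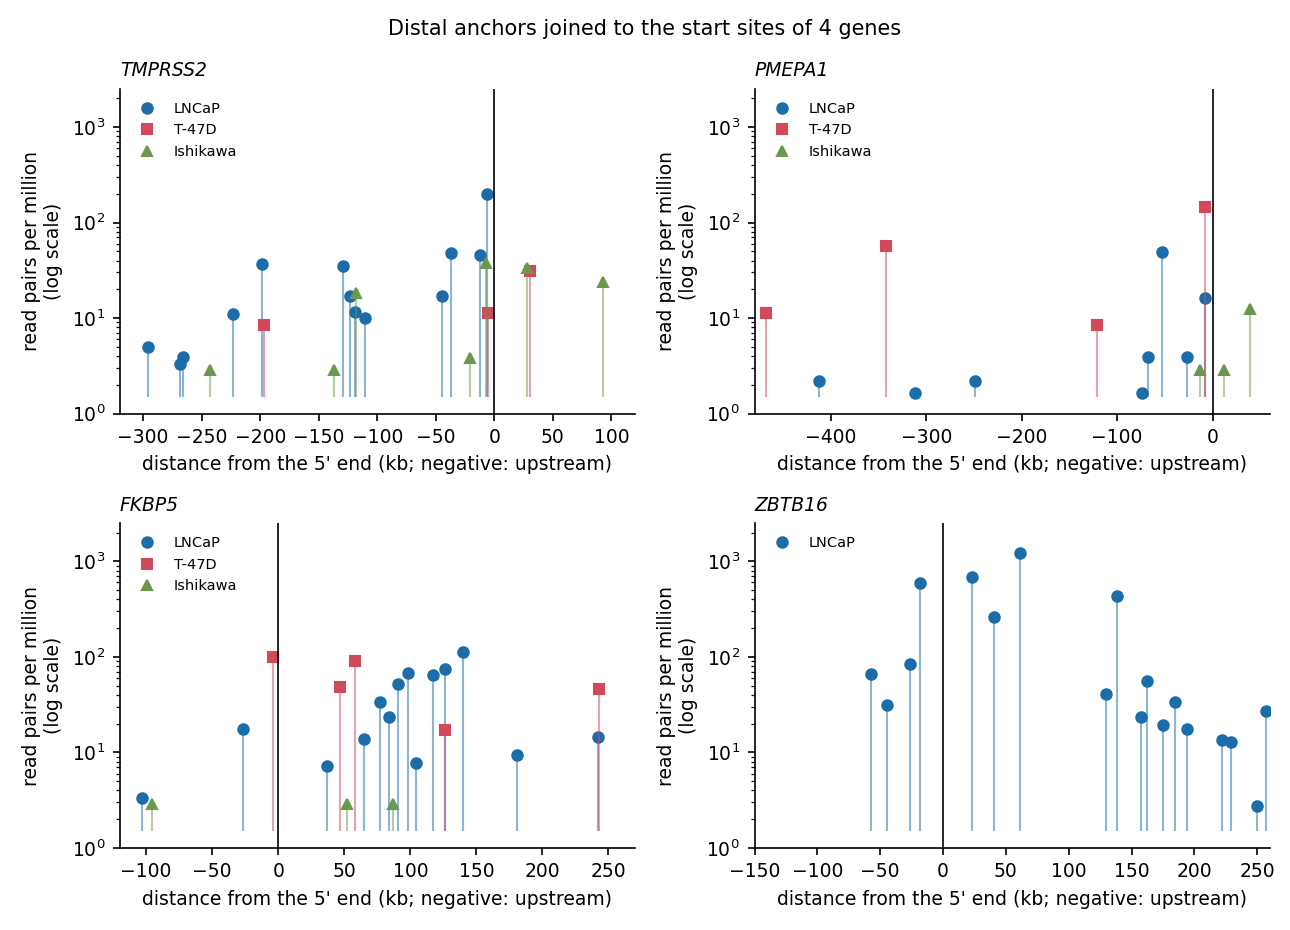
Distal anchors joined to TMPRSS2, PMEPA1, FKBP5 and ZBTB16 by distance of the anchor's centre from the gene's 5' end (x axis, kb, negative upstream) and read pairs in RPM (y axis, log scale). In LNCaP 13 of 25, 8 of 8, 14 of 30 and 18 of 29 distal anchors lie in the windows drawn; contacts of all 3 lists coincide just upstream of TMPRSS2, those of LNCaP and T-47D just upstream of PMEPA1, and those in the body of FKBP5 mostly do not.

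Among the surface enzymes, STEAP2, a metalloreductase that reduces iron and copper, followed ZBTB16 in level. It had 5077 read pairs in LNCaP (2812 RPM, 2735 to 2891), 9 in T-47D (25.6 RPM, 11.7 to 48.6) and 22 in Ishikawa (21.1 RPM, 13.3 to 32.0). T-47D and Ishikawa did not differ beyond their intervals, and LNCaP was 110-fold (57.8 to 240) and 133-fold (87.7 to 212) over them. The LNCaP anchors were wide and shared. The 41.0 kb anchor over the MANE Select start site (4228 read pairs) also covered a start site of CFAP69, and the 15.99 kb anchor upstream (1982 read pairs) one of STEAP1, so these read pairs cannot be split between the genes. The strongest loop, of 1133 read pairs, joined these anchors. LNCaP also joined STEAP2 to AKAP9, CDK14, CFAP69, CLDN12, CYP51A1, GTPBP10 and STEAP4, with 670 read pairs in the strongest loop to the CLDN12 promoter. All 3 distal anchors of the Ishikawa list overlapped distal anchors of LNCaP, with 12, 4 and 3 read pairs beside 425, 285 and 313. T-47D had no distal anchor, and its 9 read pairs ran to the promoters of CFAP69 and STEAP1. When scaled by read pairs of other loops within 1 Mb of the gene, of which T-47D had 3, the fold over T-47D was 1.26.

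FOLH1, the glutamate carboxypeptidase known as PSMA, had no loop in any list. The nearest anchor lay 73.4 kb away in LNCaP, 1046 kb in T-47D and 516 kb in Ishikawa. Within 1 Mb of the gene LNCaP had 2 anchors, T-47D none and Ishikawa 18. FOLH1 was also the member whose start region is most copied elsewhere. All of the 10000 bases around its MANE Select start site aligned to other places in GRCh37, the best to chr11:89366286-89374977 at 84.0% identity. For 8 other members no base did, and for NDRG1 8.56% did. Whether the copy bears on the absence of loops was not tested.

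SLC45A3, a membrane transporter of prostate epithelium also called prostein, had 2250 read pairs in LNCaP (1246 RPM, 1195 to 1299), none in T-47D and 3 in Ishikawa (2.88 RPM, 0.595 to 8.43). LNCaP was at least 146-fold over T-47D and 432-fold over Ishikawa (148 to 2097). A single loop held 1379 of the 2250 read pairs (61.3%, Wilson 95% interval 59.3 to 63.3). It joined the 26.2 kb LNCaP anchor over the gene to a 24.1 kb anchor (chr1:205663944-205687996) over exons of the neighbouring gene NUCKS1. T-47D had loops in the body of the gene, 5 with 32 read pairs, whose nearest anchor lay 6.95 kb from a start site. These fell under the wide LNCaP anchor, and with the promoter anchors of all lists pooled the fold was 13.7 over T-47D and 76.3 over Ishikawa, which then had 17 read pairs. Of the 32 LNCaP loops 4, with 1651 read pairs, had both anchors over those of a T-47D loop. The strongest LNCaP loop was among them. For Ishikawa this held for 5 loops, with 330 read pairs. LNCaP joined SLC45A3 to C1orf116, ELK4, MFSD4A, NUAK2, NUCKS1, PFKFB2, RAB29, RBBP5 and SLC41A1.

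ABCC4, an exporter of cyclic nucleotides and other organic anions, had 1116 read pairs in LNCaP (618 RPM, 582 to 656), none in T-47D and 39 in Ishikawa (37.5 RPM, 26.7 to 51.2). LNCaP was at least 72.4-fold over T-47D and 16.5-fold over Ishikawa (12.0 to 23.3). Within the gene, which is 282 kb long, lay the distal ends of 965 of its 1068 distal read pairs in LNCaP. The strongest loop, of 227 read pairs, joined the promoter to a 47.9 kb anchor (chr13:95854852-95902759) centred 74.9 kb into the gene. Ishikawa held most of its few read pairs, 25, at start sites about 226 to 228 kb into the gene, and 8 at the MANE Select start site, where LNCaP had 589. LNCaP had 482 and 82 at other internal start sites. All internal start sites of ABCC4 belong to transcripts that are not coding. T-47D had 16 read pairs of other loops within 1 Mb of the gene, and scaled by these the fold over T-47D was at least 1.70. With the promoter anchors of all lists pooled, Ishikawa had 121 read pairs and LNCaP was 5.31-fold over it. LNCaP joined ABCC4 to CLDN10, DNAJC3 and GPR180.

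TRPM8, a cation channel opened by cold and menthol, was the lowest member with a loop. It had 100 read pairs in LNCaP (55.4 RPM, 45.1 to 67.4) and none in either other list. This was at least 6.49-fold over T-47D and at least 19.2-fold over Ishikawa. The LNCaP anchor, chr2:234860033-234864189, lay over an internal start site 36.3 kb into the gene, of a transcript that is not coding. No list had an anchor over the MANE Select start site. The strongest loop, of 52 read pairs, ran to an anchor 24.0 kb from the 5' end, inside the gene. Loops of T-47D (1 with 3 read pairs) and Ishikawa (3 with 13) also touched the gene body, away from its start sites. Scaled by the read pairs of other loops within 1 Mb, of which T-47D had 37, the fold over T-47D was at least 1.29. The genes joined to TRPM8 in LNCaP were AGAP1, ATG16L1 and USP40.

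NDRG1, on chromosome 8, encodes a cytoplasmic protein induced by androgen, low oxygen and metal stress. It had 805 read pairs in LNCaP (446 RPM, 416 to 478), none in T-47D and 17 in Ishikawa (16.3 RPM, 9.52 to 26.2). LNCaP was at least 52.2-fold over T-47D and 27.3-fold over Ishikawa (16.9 to 47.1). Most of the LNCaP read pairs, 682, came from an anchor over internal start sites 51.5 to 55.4 kb into the gene. The anchor at the MANE Select start site had 55 read pairs. Ishikawa's anchor covered the 5' end of the gene record, 4.78 kb upstream of the MANE Select start sites, where LNCaP had none. Counted at that 5' end alone, LNCaP was at most 0.102-fold of Ishikawa, so the direction turned with the start site chosen. LNCaP and Ishikawa shared a distal anchor centred 23.3 and 22.0 kb upstream, with 93 and 4 read pairs. LNCaP joined NDRG1 to ST3GAL1 and TG.

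**Figure D4:**
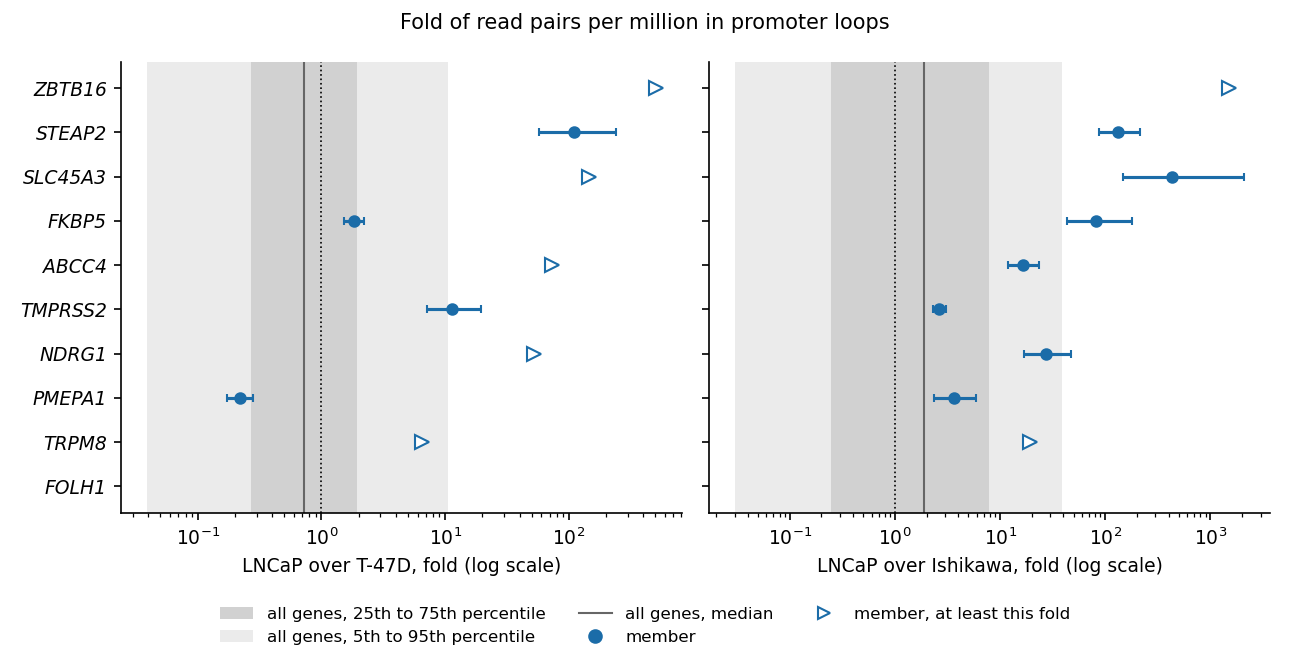
Fold of RPM in LNCaP over T-47D (left) and over Ishikawa (right) for each member, on log axes, with exact 95% intervals; arrows mark lower bounds, grey bands the percentiles of all protein-coding genes with a fold, the grey line their median and the dotted line no difference. Over T-47D, 6 members lie above the 95th percentile of 10.6 and PMEPA1 below the 25th of 0.270, and over Ishikawa 4 lie above the 95th percentile of 38.4.

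Loops and their distal ends were compared between lists. Of the 385 member loops of LNCaP, 11 (2.86%) had both anchors over those of a T-47D loop, beside 15.6% of all its promoter loops. For an Ishikawa loop it was 25 (6.49%), beside 7.37%. The loops found held 3059 (T-47D) and 4655 (Ishikawa) of the 19676 read pairs of member loops in LNCaP. The same share of read pairs was not taken over all promoter loops. Among the loops found were the strongest of SLC45A3 and STEAP2 in T-47D and those of TMPRSS2, STEAP2 and ZBTB16 in Ishikawa. Read the other way, 7 of 29 member loops of T-47D (24.1%, beside 45.9%) and 8 of 45 of Ishikawa (17.8%, beside 10.9%) were found in LNCaP. For distal anchors joined to the same gene in both lists, 5 of 211 member anchors of LNCaP (2.37%, beside 8.55% over all genes) overlapped one of T-47D and 12 (5.69%, beside 6.99%) one of Ishikawa. In the other direction 5 of 14 of T-47D (35.7%, beside 29.7%) and 9 of 31 of Ishikawa (29.0%, beside 9.73%) overlapped one of LNCaP. By gene, FKBP5 gave 5 of the 7 T-47D loops found in LNCaP, and STEAP2 4 of the 8 Ishikawa loops. When 50% of both anchors had to overlap, 1 of 385 loops was found in T-47D and none in Ishikawa. Over all promoter loops of LNCaP this limit left 7.20% and 0.997%. Member loops of LNCaP were longer than its promoter loops in general, with a median span of 174 kb beside 122 kb and 20.8% over 500 kb beside 10.1%. Their promoter anchors were wider, with a median of 7.79 kb beside 4.02 kb and 8 of 17 over 10 kb beside 5.25%. Read pairs were not divided by anchor width.

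Sequence was read in the distal anchors, where the receptor's recognition sequence would lie. The letters AGAACA, 3 bases of any kind and TGTTCT read the same on both strands, and up to 2 mismatches were allowed. Of the 211 distal anchors of members in LNCaP, 67 (31.8%) held a match, beside 26.5% of the 22378 distal anchors of all genes, which were narrower (median 3.06 kb beside 3.34 kb). In the central 2000 bases of each anchor the shares were 16.1% and 17.4%, and per 100 kb there were 8.31 and 9.08 matches. With at most 1 mismatch 16 anchors (7.58%) held a match, beside 3.003%, and in the central 2000 bases 2.84% beside 1.84%. The forkhead letters TGTTTAC, searched on both strands and sharing their first 4 letters with TGTTCT, were in 49.3% of member anchors and 50.1% of all, and in the central 2000 bases in 30.8% and 38.2%. Only 1 member anchor in LNCaP held the recognition sequence without a mismatch, and it was the FKBP5 intron anchor that T-47D also joined to the gene. That site and the closest match in the 3 strongest distal anchors of TMPRSS2, PMEPA1 and TRPM8 are printed from the plus strand of GRCh37, with the match in capitals.
FKBP5, chr6:35569859-35569873, no mismatch: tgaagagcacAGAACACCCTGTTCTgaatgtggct
TMPRSS2, chr21:42909831-42909845, 2 mismatches: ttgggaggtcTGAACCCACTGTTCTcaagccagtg
PMEPA1, chr20:56296072-56296086, 2 mismatches: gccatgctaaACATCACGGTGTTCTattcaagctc
TRPM8, chr2:234831982-234831996, 1 mismatch: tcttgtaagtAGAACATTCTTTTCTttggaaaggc
The TMPRSS2 match lay in its strongest LNCaP anchor and the PMEPA1 match in the anchor it shared with T-47D. The TRPM8 match was 5.97 kb from the gene's 5' end, in the anchor of its second strongest loop. By gene, FKBP5 led with 13 of 30 anchors holding a match and 6 with at most 1 mismatch. A match of letters is a description of the sequence and shows no binding.

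Other genes with a known androgen response were taken from a list of 50, of which 49 were found in the annotation. Of these 31 were higher in LNCaP than in T-47D and 5 lower, with a median fold of 6.57 (n = 45), beside the 14.3% and 23.1% of all genes. Against Ishikawa 38 were higher and 6 lower, with a median of 17.5 (n = 48), beside 35.5% and 22.9%, and 30 were higher than both, beside 11.1%. The kallikrein genes KLK2, KLK3 (which encodes prostate-specific antigen) and KLK4 shared 1 set of 61 loops with 2936 read pairs in LNCaP, so their values are 1 measurement. No T-47D loop reached them, and Ishikawa had 0, 6 and 27 read pairs. The next highest in LNCaP were STEAP1, with the 1982 read pairs that it shares with STEAP2, and TPD52 with 1655. After the kallikreins, the highest folds over T-47D were 96.4 for STEAP1 and at least 80.6 for C1orf116. Over Ishikawa they were at least 564 for KLK2, 282 for KLK3, 231 for CENPN, at least 197 for SPDEF and at least 170 for HERC3. The 5 lower than in T-47D were KRT8, KRT19, ABHD2, MED28 and INPP4B. KRT19, a keratin of simple epithelia, was lowest, with 0 read pairs in LNCaP and 296 in T-47D, at most 0.00197-fold.

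The receptor's partner factors and coactivators differed from each other in pattern. FOXA1, the forkhead factor, had 6348 read pairs in LNCaP, 908 in T-47D and 0 in Ishikawa, 1.36-fold over T-47D. HOXB13 had 3243 in LNCaP and none in the other lists. GRHL2, a grainyhead factor of epithelia, had 3447, 0 and 38. The coactivators and acetyltransferases had fewer read pairs in LNCaP. Among them NCOA1 had 47, 3 and 42 read pairs in LNCaP, T-47D and Ishikawa, and NCOA2 205, 7 and 34. NCOA3 was 0.347-fold of T-47D and 2.48-fold over Ishikawa. EP300 had 92, 9 and 55, and CREBBP 38, 3 and 130. Of these 8 genes 5 were higher in LNCaP than in T-47D and 1, NCOA3, lower, beside 14.3% and 23.1% of all genes. Against Ishikawa 5 were higher and 1, CREBBP, lower, beside 35.5% and 22.9%.

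In the whole series the lists held 149226 loops (LNCaP), 42027 (T-47D) and 163530 (Ishikawa), with 1805322, 351260 and 1040329 read pairs, so a count of 0 weighs least in T-47D, where 3 read pairs are 8.54 RPM. The LNCaP list held no loop under 5 kb or over 2 Mb and no pair within 1 anchor, and the other lists held such rows. Of 12 marker genes of the 3 lines, 10 had their highest level in their own line's list. TFF1, named for T-47D, had 58 read pairs in LNCaP and none elsewhere, and HOXA11, named for Ishikawa, had none in any list. The Ishikawa list was made of 4 parts that the labels do not tie to samples, and TMPRSS2 had 188 to 322 RPM in each of them. ABCC4 was also found in all 4 parts, and the other members in 3 or fewer.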

How the data were processed

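H3K27ac HiChIP was measured in 7 samples of 3 cell lines. Per the labels and the study's methods, the authors aligned reads to hg19 with HiC-Pro and called loops with hichipper, keeping loops of 3 or more read pairs below a false discovery rate limit. The deposited lists hold counts of read pairs for each pair of anchors, pooled per line. HiC-Pro and hg19 are also named in the submitters' processing notes.

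Rows of the same anchors were summed over the 4 parts of the Ishikawa list, pairs within 1 anchor and between chromosomes were left out, and anchors were matched to 500 bp windows on start sites of GENCODE 44 lifted to GRCh37 (20163 protein-coding genes, mitochondrial genes left out). All anchor starts checked on chromosome 21 fell on a GATC site of that genome. Counts were scaled per 1000000 read pairs of the list, and folds were called at 2-fold, with a list under 3 read pairs set at 3. Intervals are exact Poisson or conditional binomial, and shares Wilson, at 95%. Anchors of overlapping genes count for each gene. Start regions were aligned with minimap2 2.31-r1302. Scripts used Python 3.11.15, pandas 2.3.3, numpy 2.4.6, scipy 1.17.1 and samtools 1.23.1, and the fold step was tested on simulated data. Named genes were the members, the genes joined to them in LNCaP, the leading genes of the wider list and 8 partner factors and coactivators, with 1 gene and 1 sequence not reported here. The members and lists were chosen with earlier results of these data known. No p-value was computed, since no line has replicate values. Alternatives changed the read pair minimum, window, start sites, spans, depth, parts and scaling.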

Additional observations from a re-analysis of the deposited data

Results flagged for a closer look

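Pairs within 1 anchor were left out of the comparisons, since the LNCaP list holds none, and some lay over start sites of members. In Ishikawa they held 150 read pairs at TMPRSS2, 9 at STEAP2 and 7 at PMEPA1, each above 3, the lowest count that any list held. In T-47D they held 114 at PMEPA1, 24 at FKBP5, 10 at STEAP2 and 10 at NDRG1, a gene with no loop between different anchors in that list.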

How the results depend on the processing

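No paired analysis was possible because each line's samples were pooled into 1 list before deposit, and for the same reason no replicate could be left out. Over 13 alternatives the count of members higher in LNCaP ranged from 5 to 8 over T-47D and from 7 to 9 over Ishikawa, beside 6.77% to 16.2% and 18.6% to 40.0% of all genes. Scaling by read pairs of other loops within 1 Mb changed 4 calls over T-47D (FKBP5 to 3.68, TRPM8 to at least 1.29, STEAP2 to 1.26, ABCC4 to at least 1.70). Either choice of 1 start site changed 2 calls among the folds still formed, 16 at the MANE Select start site and 15 at the 5' end. Calls left without a fold, such as both of TRPM8, were lost as well. The members higher over T-47D and Ishikawa were then 5 and 7 at the MANE Select start site. At the 5' end they were 6 and 7. With the MANE Select start site alone, which like the pooling of promoter anchors was chosen after seeing the data, TMPRSS2 was at most 0.0324-fold of T-47D and at most 0.0147-fold of Ishikawa. At that site 2 members were lower than in T-47D and 1 than in Ishikawa, beside 22.0% and 14.9% of all genes. With the 5' end alone, NDRG1 was at most 0.102-fold of Ishikawa, and 2 members had a loop in T-47D. There 1 member was lower than in Ishikawa, beside 15.1% of all genes. These values follow from which start sites the anchors cover. When read pairs were thinned to the total of T-47D (351260) and loops under 3 then dropped, 254367 were left in LNCaP and 224588 in Ishikawa, below that total, and 3 members had a loop in Ishikawa, and 97 distal anchors were left in LNCaP and 7 in Ishikawa. The share of member loops of LNCaP found in T-47D was 0.260% when 50% of both anchors had to overlap, and that found in Ishikawa was 0%. Over all promoter loops of LNCaP these shares were 7.20% and 0.997%. In the other direction the member shares were 3.45% and 0%, beside 20.3% and 1.64% of all promoter loops. With 5 or more read pairs in both lists, 3.87% of member loops of LNCaP were found in Ishikawa, beside 5.48% of all its promoter loops. With at most 1 mismatch, 16 of 211 distal anchors of members in LNCaP, 1 of 14 in T-47D and 1 of 31 in Ishikawa held the recognition sequence. These were 7.58%, 7.14% and 3.23%, beside 3.003%, 1.40% and 2.75% of the distal anchors of all genes. With no mismatch 1, 1 and 0 held it, beside 0.223%, 0.0517% and 0.138% of the distal anchors of all genes. The cause of the changes in sharing was not tested. TMPRSS2 over Ishikawa was also under 2-fold when loops were counted in place of read pairs (1.89). Depth limits T-47D most, and enzyme, fragmentation and sequencing differ between Ishikawa and the other lines.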
